A study of Mus musculus with 2 samples.

Results

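CD8 T cells of the mouse bone marrow were taken from 2 single-cell RNA libraries and compared between diets. Each was made on the BD Rhapsody system, which captures single cells in microwells and tags each mRNA molecule, from male wild-type mice of strain C57B/6. One library came from mice on normal chow (ND) and the other from mice on a diet with 60% fat (HFD), and both diets lasted 16 weeks. The labels do not give the number of mice behind a library, whether marrow was pooled, or any sort or gate. With 1 library per diet there was no replicate, so no test was made. A difference between the libraries may be one between diets, mice or preparations, and these cannot be told apart.

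A cell counted as a CD8 T cell when it had at least 200 genes, at most 25% mitochondrial molecules, at least 2 of Cd3d, Cd3e and Cd3g, at least 1 molecule (UMI) of Cd8a or Cd8b1, no Cd4, no Ncr1 or Klrb1c, and fewer than 2 UMIs of Cd79a. This rule found 200 cells in the ND library and 197 in the HFD library, 397 of the 29952 cells that passed the filter. The cells were thus chosen by measured UMIs of these genes, which are given only as a description. Cd8a had 636 UMIs in the ND cells and 731 in the HFD cells, Cd8b1 had 744 and 601, and Cd3e had 556 and 691. Just inside the rule, 18 ND cells and 24 HFD cells had a single Cd8 UMI. Just outside it, 110 ND cells and 136 HFD cells met every other condition but had no Cd8 UMI, and 44 and 55 were left out only for a UMI of Ncr1 or Klrb1c, which mark natural killer (NK) cells.

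A CD8 T cell reads peptides on class I molecules through its T cell receptor and the CD8 coreceptor, and kills the cell that presents them by releasing perforin and granzymes. Naive CD8 T cells circulate through blood and lymph nodes under CCR7 and S1PR1, with TCF1 and LEF1 as their transcription factors. After antigen or homeostatic cytokines they turn into effector or memory cells, which store mRNA of the chemokine CCL5. Bone marrow is known as a site where memory CD8 T cells settle and divide slowly.

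The T cell part of the label was borne out by genes that the rule did not use. The CD8 part rests on the rule's own genes. A beta constant gene of the T cell receptor was detected in 198 of 200 ND cells and in 197 of 197 HFD cells, and the alpha constant gene in 185 and 186. Among genes with at least 100 UMIs in these cells, those most enriched over all other cells of both libraries were, besides the rule's own genes, Dapl1, Themis, Als2cl, Nsg2 and Bcl11b. Dapl1, a transcript of naive T cells, stood at 163 UMIs per 1000000 UMIs of the set (CPM) in the ND cells and 93.2 CPM in the HFD cells, against 0.43 and 0.26 CPM in all other cells. Themis, an adaptor in T cell receptor signalling, stood at 86.7 and 76.8 CPM against 0.76 and 0.85. The enrichment describes the cells the rule picked and is no test.

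Depth was alike in both sets. The ND cells held 853716 UMIs with a median of 3411.5 per cell (lowest 1382, highest 35037), and the HFD cells held 911583 with a median of 3486 (1316 to 31496). Median mitochondrial shares were 9.83% and 8.41%. The libraries shared 329 cell barcodes, 1 of them among the CD8 T cells and none with identical counts. RNA of other lineages was present: 14 ND cells and 12 HFD cells carried at least 1% of their UMIs in marker genes of other blood lineages, with medians of 6870 and 7899.5 UMIs, against 3334 and 3317 in the remaining CD8 T cells. Neutrophil markers summed to 11920 CPM in the ND cells and 11495 CPM in the HFD cells, erythroid markers to 905 and 133 CPM, and basophil and mast cell markers to 192 and 720 CPM. Of the B cell markers, Ms4a1 was at 0 in both libraries. The part of this RNA in the results was not tested beyond leaving those cells out. Values without them are given for some counts only, and a count without such a value may also be touched.

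The share of CD8 T cells differed between the libraries by less than counting error. They made up 1.40% of kept ND cells (exact Clopper-Pearson 95% interval 1.21 to 1.60%) and 1.26% of kept HFD cells (1.09 to 1.45%), a ratio of 0.90 (0.74 to 1.10). All intervals here cover counting error only. Cells that passed the mirror rule for CD4 (Cd4 detected, no Cd8a or Cd8b1) numbered 35 and 54. CD8 T cells were thus 85.1% of CD8 and CD4 cells together in the ND library (79.9 to 89.4%) and 78.5% in the HFD library (72.9 to 83.4%), a ratio of 0.92 whose interval of 0.75 to 1.13 includes 1. Cd4 mRNA is known to be sparse in single cells, and the share of CD8 cells among all cells with 2 or more Cd3 genes was 31.9% and 30.6%.

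The marked difference lay in the make-up of the CD8 T cells. Ccl5, the chemokine transcript stored by effector and memory cells, was detected in 92 of 200 ND cells (46.0%, 38.9 to 53.2%) and in 144 of 197 HFD cells (73.1%, 66.3 to 79.2%). The HFD share was 1.59 times the ND share (1.21 to 2.09). With every cell thinned to 1000 UMIs the shares were 43.5% and 67.0%. B cells, which should lack Ccl5, showed it in 1.14% and 1.37% of 1403 and 1753 cells at median depths of 2591 and 2525 UMIs. The share was thus well above the background of free RNA in both libraries. Without the cells at 1% or more of other-lineage UMIs it was 47.3% and 74.6%, and with the cells that held Ncr1 or Klrb1c added it was 55.7% and 79.0%.

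Ccl5 split the cells almost in an on or off manner. In the ND library 108 cells had 0 UMIs, 4 had 1, 4 had 2 to 5 and 84 had more than 5, and the highest cell had 157. In the HFD library the numbers were 53, 4, 11 and 129, with 369 UMIs in the highest cell. Cells that carried Ccl5 held a median of 21 UMIs of it in both libraries, so the libraries differed in how many cells carried the transcript and little in how much a typical carrier held. Deeper cells carried it more often, but the difference stood at both depths. Among cells at or below the joint median of 3439 UMIs, 28.2% of ND cells and 64.6% of HFD cells had Ccl5, and above it 64.9% and 81.2% did.

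**Figure D1:**
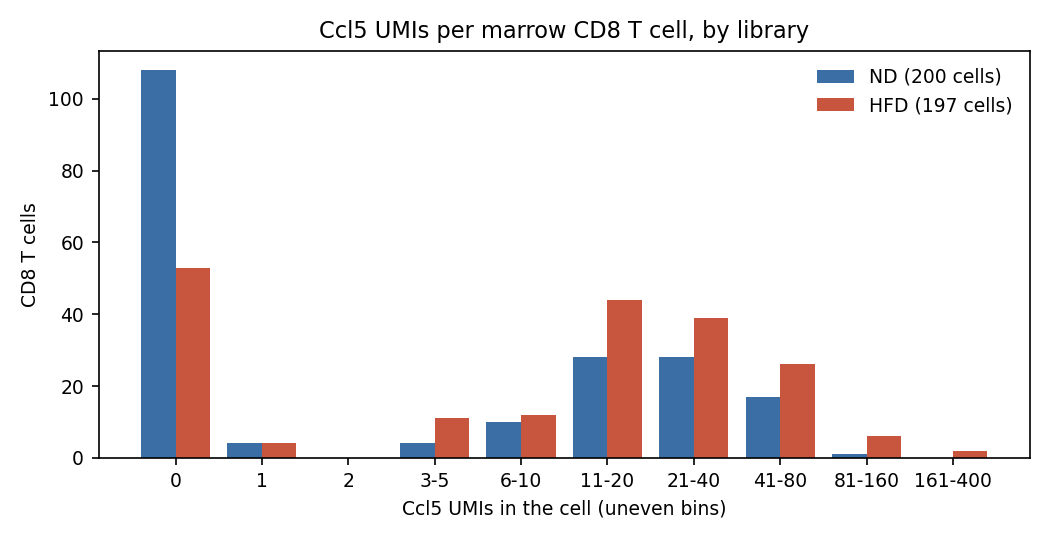
Number of marrow CD8 T cells (y axis) by the Ccl5 UMIs in the cell (x axis, uneven bins), with ND cells in blue and HFD cells in red. The bin at 0 holds 108 ND and 53 HFD cells, and few cells of either library lie between 1 and 5 UMIs.

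Summed over the cells, Ccl5 had 2382 UMIs (2790 CPM) in the ND library and 4578 UMIs (5022 CPM) in the HFD library, a log2 ratio of HFD over ND of 0.85 (95% counting interval 0.78 to 0.92). Genes were set against the same rule throughout: at least 20 UMIs over both libraries, a ratio of at least 1.5-fold, and an interval that excludes 0. Of 7952 genes, 370 (4.65%) were higher in the HFD cells by this rule and 206 (2.59%) lower, and the median log2 ratio was 0.05. Without the cells at 1% or more of other-lineage UMIs, 355 of 7335 genes were higher and 176 lower. When mitochondrial, ribosomal, haemoglobin, S100a8 and S100a9 UMIs were left out of the totals, 276 were higher and 278 lower, so the balance of higher and lower genes rests on the scaling.

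Naive genes leaned lower in the HFD cells. Of 18 listed genes for naive and recirculating T cells, 3 passed as lower (16.7%, beside 2.59% of all genes) and 0 as higher. The median log2 ratio was -0.34, with 1 gene above 0. Lef1, a transcription factor of naive T cells, had 273 UMIs in 119 ND cells and 185 UMIs in 91 HFD cells (log2 ratio -0.66, -0.93 to -0.38). Dapl1 had 139 UMIs in 69 cells and 85 UMIs in 41 cells (-0.80, -1.21 to -0.40). S1pr1, the receptor that guides exit into blood and lymph, had 180 UMIs in 108 cells and 126 UMIs in 79 cells (-0.61, -0.95 to -0.27). All 3 were lower in both UMIs and cells.

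Other naive genes leaned the same way without passing. Tcf7, which encodes TCF1, fell short of 1.5-fold at 688 and 473 CPM (log2 ratio -0.54), and Il7r, the receptor for the survival cytokine IL-7, stood at 534 and 373 CPM (-0.52). Ccr7, the receptor that guides entry into lymph nodes, stood at 86.7 and 69.1 CPM (-0.33, -0.84 to 0.18). Igfbp4 was the exception, at 119 and 160 CPM (0.42), in 45 ND cells and 35 HFD cells. Detection told the same: Lef1 was found in 59.5% of ND and 46.2% of HFD cells, or 31.0% and 16.8% at 1000 UMIs, against 13.04% and 13.7% of B cells. Dapl1 was found in 34.5% and 20.8%, or 18.5% and 8.12% at 1000 UMIs, and in no B cell.

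Memory and effector genes leaned higher. Of 27 measured genes of this list, 8 passed as higher (29.6%, beside 4.65% of all genes) and 0 as lower, with a median log2 ratio of 0.30. Several transcription factors of this list were higher. Eomes, which directs memory and cytotoxic genes, had 96 UMIs in 41 ND cells and 174 in 80 HFD cells (log2 ratio 0.76, 0.40 to 1.14), and 25 of the ND UMIs were in 1 cell. It was found in 20.5% of the ND set (15.1 to 26.8%) and in 40.6% of the HFD set (33.7 to 47.8%), or 10.5% and 13.7% at 1000 UMIs, beside 0.21% and 0.17% of B cells. Id2, a regulator of effector cells, had 229 and 417 UMIs (0.77), and Runx3, a factor of the CD8 lineage, had 181 and 294 (0.61). Bhlhe40, a factor of resident cells, had 8 and 24 (1.49). Tbx21, which encodes T-bet, did not pass at 46 and 63 UMIs (0.36, -0.21 to 0.94).

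Surface molecules were less even. Ly6c2, an antigen of memory CD8 T cells that monocytes also carry, had 1468 and 2500 UMIs (log2 ratio 0.67, 0.58 to 0.77). Cx3cr1, a chemokine receptor of effector cells, had 16 and 33 UMIs in 7 and 12 cells (0.95, 0.05 to 1.91). Il2rb, the receptor chain for IL-2 and IL-15, reached 628 and 871 CPM (0.47), and Cd44, an adhesion receptor, 138 and 199 CPM (0.52), and both stayed under 1.5-fold. Cxcr3, a chemokine receptor of memory cells, had 89 UMIs in 43 ND cells, 16 of them in 1 cell, and 84 UMIs in 63 HFD cells (-0.18, -0.63 to 0.27). Its share of cells and its level thus point opposite ways, and no order is read from them.

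**Figure D2:**
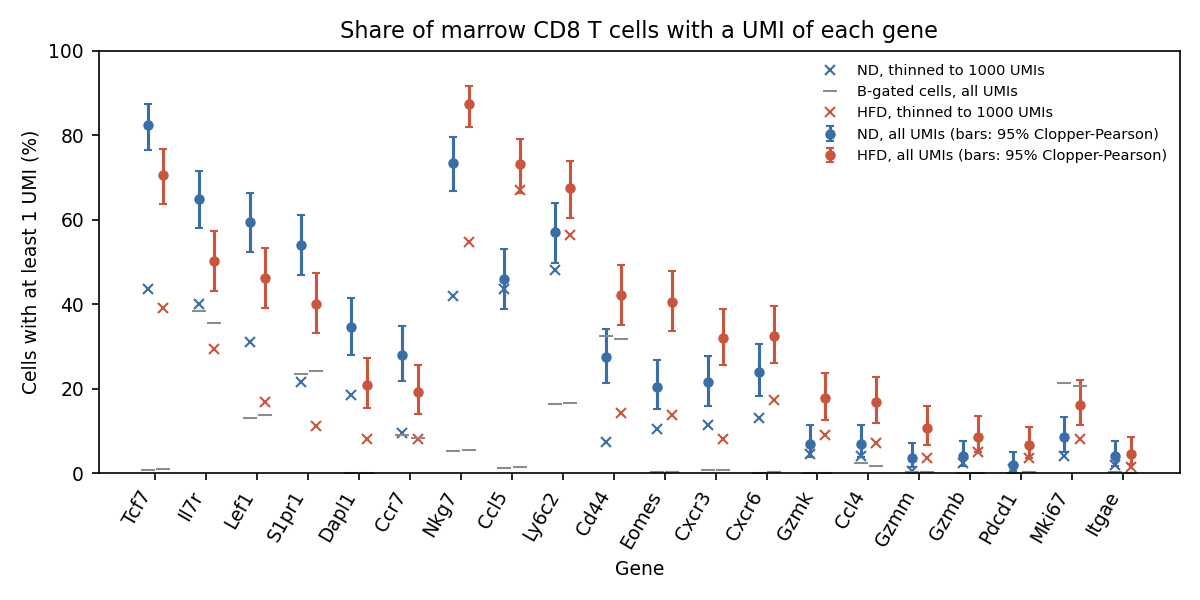
Share of marrow CD8 T cells with at least 1 UMI of each gene (y axis, percent) in the ND library (blue) and the HFD library (red), with 95% Clopper-Pearson bars, crosses for cells thinned to 1000 UMIs, and grey dashes for B cells. Naive genes at the left lie lower in the HFD library (Lef1 59.5% and 46.2%), and Ccl5 and Eomes lie higher (Ccl5 46.0% and 73.1%).

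Genes of the killing machinery were higher in the HFD cells, most of them from few UMIs. Of 17 genes for cytotoxic granules and death ligands, 9 passed as higher (52.9%, beside 4.65% of all genes) and 0 as lower. The median log2 ratio was 0.59. Without the cells at 1% or more of other-lineage UMIs 6 passed, with a median of 0.57. NK markers in these cells summed to 351 CPM in the ND library and 629 CPM in the HFD library, with any of them in 84 and 130 cells. Of the 13 markers, 5 were at 0 in the ND cells and 4 in the HFD cells, Ncr1 and Klrb1c by the rule itself, and Gzma and Prf1 are also in the cytotoxic list and Eomes in the memory list. The part of NK cells in these values was not tested. Nkg7, a granule membrane protein, was the most abundant of the 9, with 568 UMIs in 147 ND cells and 915 UMIs in 172 HFD cells (0.59, 0.44 to 0.75). Gzmk, the granzyme of memory cells, had 25 UMIs in 14 cells and 72 UMIs in 35 cells (1.43, 0.76 to 2.15). The bases just before the transcription start of these 2 genes are shown because both hold GGTGTGA, a core motif of T-box factors such as EOMES and T-bet, marked in capitals. They span chr13:113180966-113181115 on the minus strand and chr7:43436988-43437137 on the plus strand of GRCm38.p6, from RefSeq, and are printed 5′ to 3′ along the gene.
Gzmk: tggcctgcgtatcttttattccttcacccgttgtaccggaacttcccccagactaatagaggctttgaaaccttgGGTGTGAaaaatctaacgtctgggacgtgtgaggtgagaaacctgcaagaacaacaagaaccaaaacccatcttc
Nkg7: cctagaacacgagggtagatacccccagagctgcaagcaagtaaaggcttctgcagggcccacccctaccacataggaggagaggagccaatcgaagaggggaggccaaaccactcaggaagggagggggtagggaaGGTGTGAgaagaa
The motif starts 75 bases before the Gzmk start and 13 bases before the Nkg7 start. On either strand of windows of 300 bases it occurred in 4 of 18 promoters of the cytotoxic list (15 of 17 genes matched), in 0 of 28 of the memory list (20 of 28 genes), and in 3.98% of all 32851 promoters. A match is a description of these letters and not a binding site.

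Among the other killing genes, Prf1, which encodes the pore protein perforin, had 23 UMIs in 21 ND cells and 52 in 40 HFD cells (log2 ratio 1.08, 0.35 to 1.86). Gzmm had 13 and 37 UMIs (1.41), Cst7, an inhibitor of granule proteases, 87 and 168 (0.85), Fasl, the ligand of the death receptor Fas, 14 and 30 (1.00), and Tnfsf10, which encodes TRAIL, 26 and 46 (0.73). The granzymes of acute killers were rare. Gzma had 11 UMIs in 5 ND cells and 74 in 7 HFD cells, 34 of them in 1 cell (2.66), and Gzmb had 56 UMIs in 8 cells, 46 of them in 1, and 79 in 17 cells (0.40, -0.11 to 0.92). Gzma was found in 2.5% and 3.55% of CD8 T cells, against 55.2% and 41.2% of NK cells and 0.57% and 0.34% of B cells.

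Several secreted factors were higher besides Ccl5. Ccl4, an inflammatory chemokine, had 90 UMIs in 14 ND cells and 252 in 33 HFD cells, 102 of the latter in 1 cell (log2 ratio 1.39, 1.04 to 1.75), and Ccl3 had 66 and 172 UMIs in 12 and 18 cells (1.29). Xcl1, which attracts cross-presenting dendritic cells, had 88 and 174 UMIs in 36 and 62 cells (0.89). Ifng, the interferon of T and NK cells, was near the limit of detection with 5 and 18 UMIs in 5 and 13 cells (1.75, 0.27 to 3.54). Osm, a cytokine that myeloid cells also make, was lower, with 46 UMIs in 23 cells and 9 in 9 cells (-2.45). In all, 5 of 13 genes of this list passed as higher (38.5%) and 1 as lower (7.69%), with a median of 0.03. Of all genes 4.65% passed as higher and 2.59% as lower.

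Genes of chronic stimulation were few and low, and 50% of those measured passed as higher, beside 4.65% of all genes. Of 8 measured, 4 passed as higher: Tox, a factor of repeatedly stimulated cells, with 71 and 123 UMIs in 39 and 66 cells (log2 ratio 0.70), Pdcd1, which encodes PD-1, with 6 and 27 UMIs in 4 and 13 cells (2.08), the activation receptor Tnfrsf9 with 10 and 25 (1.23), and Nr4a2 with 7 and 33, of which 16 lay in 1 HFD cell (2.14). Pdcd1 was thus found in 2% of the ND set (0.55 to 5.04%) and in 6.60% of the HFD set (3.56 to 11.02%), beside 0.14% and 0.34% of B cells. Without the cells at 1% or more of other-lineage UMIs 2 of the 8 genes passed. Among 11 NK-type lectin receptors, Klrk1 (84 and 136 UMIs, 0.60), Klrc2, Klra3 and Klra9 passed as higher and Klra1 as lower (56 and 34 UMIs, -0.81). These were 36.4% and 9.09% of the receptors, beside 4.65% and 2.59% of all genes. Klra genes are near-identical copies, so the split of molecules between them is uncertain, and the rule itself left out cells with Klrb1c or Ncr1.

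Few genes for staying in the marrow and for cytokine sensing passed. Each list had 1 gene higher and 1 lower, or 5.26% of homing genes and 5.56% of cytokine receptors each way. Of all genes 4.65% passed as higher and 2.59% as lower, so these counts are not read as a result about either list. Of 19 homing genes, only Rgs1, a brake on chemokine receptors, passed as higher (26 and 79 UMIs, log2 ratio 1.51) and only S1pr1 as lower, with a median of -0.03. Cxcr4, the receptor that holds cells in marrow, stood at 114 and 131 CPM (0.20, -0.20 to 0.60), and Itga4, an integrin for marrow vessels, at 413 and 400 CPM (-0.05). Of 18 cytokine receptors, Il10ra passed as higher (25 and 48 UMIs, 0.85) and Il6ra as lower, with 143 UMIs in 81 ND cells and 77 in 41 HFD cells (-0.99, -1.41 to -0.58). The 22 genes of the receptor complex and its signalling ranged only from -0.17 to 0.52, and 0 passed in either direction.

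The cells that carried Ccl5 differed from the rest of the CD8 T cells in much the same direction in both libraries. In the ND library, 2665 genes with at least 50 UMIs were ranked by their ratio between cells with and without Ccl5. The 15 highest held Klrk1, Klra7, Klrc1, Klre1, Serpina3g, Cxcr3, Xcl1, Gzmb, Cd160, Il2rb, Ctla2a and Cxcr6, and the 15 lowest held Igfbp4, Trib2, Rgcc, Als2cl, Il6ra, Dapl1, Lef1, Tsc22d3, Ift80, Prdx2 and Cpox, and 4 genes that myeloid cells express, Retnlg, Cst3, Csf2ra and Ms4a6c. RNA of other lineages thus moved with the split: Retnlg, a neutrophil transcript, was at 247 CPM with Ccl5 and 826 CPM without it in the ND library, and at 557 and 2130 CPM in the HFD library, and its part in the ranking was not tested. In the HFD library, which the ranking did not use, 14 of the 15 highest and 13 of the 15 lowest had the same sign. Egr3 was the highest that turned, and Prdx2 and Cpox the lowest that did. Il2rb was at 1152 CPM with Ccl5 and 90.2 CPM without it in the ND library, and at 1142 and 89.5 CPM in the HFD library. The split on 1 transcript is a gate and not a cell type.

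Detection within the split was close between the libraries for some genes and further apart for others. Il2rb was found in 92.4% of ND and 93.8% of HFD cells with Ccl5, and in 25% and 32.1% of those without. Cd8b1, which the rule used, was found in 70.7% and 69.4% with Ccl5 and in 95.4% and 100% without. Further apart in cells with Ccl5 were Eomes, in 38.0% of ND and 52.1% of HFD cells, and Il7r, in 59.8% and 42.4%. Itgae, which encodes the integrin CD103 of naive and tissue-resident CD8 T cells, was found without Ccl5 in 8 of 108 ND cells and 9 of 53 HFD cells. With Ccl5 it was found in 0 of 92 and 0 of 144 cells, where 3 counts would be 3.26% and 2.08% of cells, a limit on cells with a UMI and not on cells that express this sparse transcript. At least 1 of Lef1, Ccr7 and Dapl1 was found in 93.5% and 90.6% of cells without Ccl5 and in 44.6% and 47.2% of cells with it.

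The summed lists per cell gave the same picture. Memory and effector genes other than Ccl5 took a median of 101 UMIs per 10000 in ND cells with Ccl5 and 109 in HFD cells with it, against 18.1 and 17.0 without. Naive genes took 36.6 and 27.3 with Ccl5 and 73.8 and 74.6 without. In cells without Ccl5 these medians were close between the libraries, and in cells with Ccl5 the naive median was lower in the HFD library. Summed over all cells without Ccl5, memory genes stood further apart, at 2824 and 4035 CPM (log2 ratio 0.51, 0.39 to 0.64). That sum leaned on few deep cells. Of its 947 HFD UMIs, cells of 16028, 8028 and 14994 UMIs held 182, 134 and 130. The cell with 134 had 17.2% of its UMIs in other-lineage markers. Of the 1190 ND UMIs, the highest cell held 147. The part of such cells in the difference was not tested. Among cells without Ccl5, 4 of 17 measured memory genes passed as higher, Ly6c2, S100a6, Anxa2 and Lgals1. Of 18 naive genes Ccr7 and Ccr9 passed as higher, and 0 genes of either list passed as lower. Within cells without Ccl5 the median log2 ratio of the naive list was 0.02, and within cells with Ccl5 it was -0.49. For the memory list the medians were 0.11 and -0.05. Over all CD8 T cells the medians were -0.34 and 0.30, so the naive median was further below 0 in cells with Ccl5 and near 0 in cells without it, and the memory median was nearer 0 in both.

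**Figure D3:**
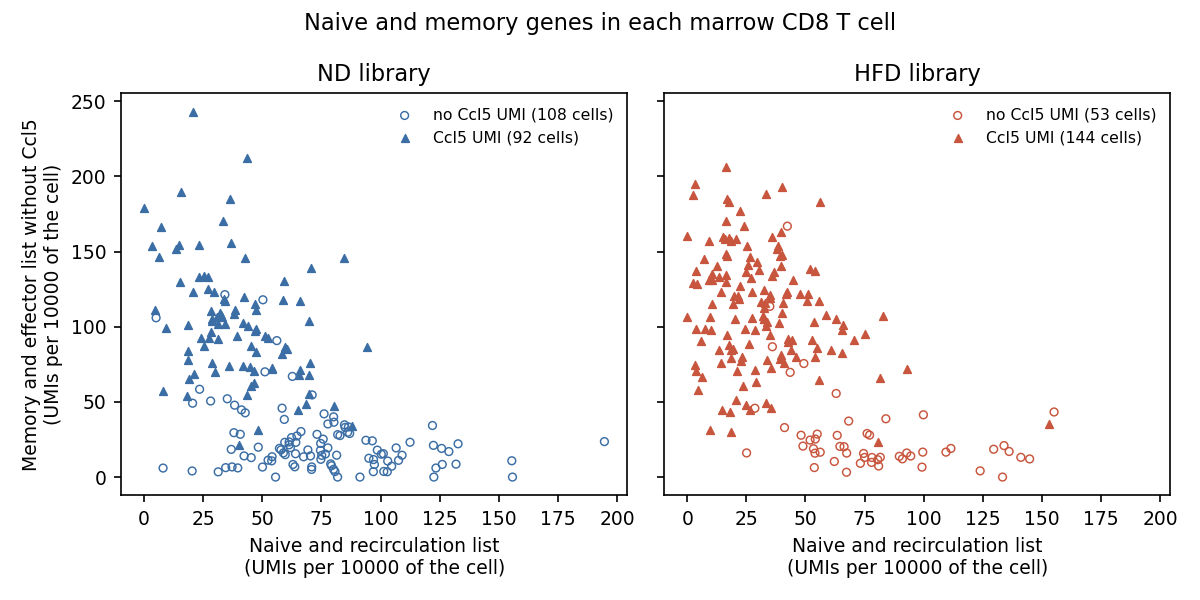
Each point is 1 marrow CD8 T cell, placed by the naive and recirculation genes (x axis) and the memory and effector genes without Ccl5 (y axis), both as UMIs per 10000 UMIs of the cell, for the ND library (left) and the HFD library (right). Open circles lack Ccl5 (108 and 53 cells) and lie low and to the right, and filled triangles carry it (92 and 144 cells) and lie high and to the left.

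Among cells that carried Ccl5, effector genes moved both ways (background 4.9% of 6591 genes higher and 2.81% lower). Of 27 memory and effector genes 4 passed as higher, Eomes, Zeb2 and Cx3cr1 among them, and 4 as lower, which were Cxcr3, Ly6a, Itgb1 and Il18rap, with a median log2 ratio of -0.05. Of 17 cytotoxic genes Gzma, Gzmk and Prf1 passed as higher and Serpinb9 and Unc13d as lower, with a median of 0.29. The chemokine receptor Cxcr3 had 85 and 81 UMIs (-0.72, -1.17 to -0.26), and 16 of the ND UMIs lay in 1 cell. It was found in like shares of 44.6% of ND and 42.4% of HFD cells with Ccl5, so no order is read from it. Gzma was found in 4.35% and 4.86% of these cells, with 34 of its HFD UMIs in 1 cell. The other genes given here were chosen after their values were seen. Gzmk had 20 UMIs in 13 of 92 ND cells and 72 in 35 of 144 HFD cells (log2 ratio 1.20, 0.47 to 1.99). Eomes had 63 and 164 UMIs (0.73), Rgs1 21 and 78 (1.25), and Ccl4 80 and 249 (0.99). Gimap7, a GTPase of lymphocytes, had 87 and 225 UMIs (0.72). Nkg7 did not pass there, at 1018 and 1244 CPM (0.29), nor did Ccl5 itself at 5509 and 6763 CPM (0.30). S1pr1 passed as lower, at 180 and 118 CPM (-0.61).

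Cells without Ccl5 (257 of 4885 genes, 5.26%, higher and 3.07% lower) showed another picture. Gzmk and Gzmb were each found in 1 of 108 ND cells, and Gzmm and Ifng in 0 of 108, where 3 counts would be 2.78% of cells. All 4 were found in 0 of 53 HFD cells, where 3 counts would be 5.66%, so these sparse transcripts were near or under the limit of detection there. Eomes had 33 UMIs in 6 of 108 ND cells (5.56%) and 10 in 5 of 53 HFD cells (9.43%). Its share of cells and its UMIs thus point opposite ways. Rgs1, with 5 and 1 UMIs, was under the minimum of 20 UMIs, and no order is read from either gene. Ly6c2 passed as higher there, at 491 CPM in the ND cells and 1082 CPM in the HFD cells (log2 ratio 1.14, 0.87 to 1.41), although it was found in like shares of 29.6% and 32.1% of cells. Whether ratios differ between cells with and without Ccl5 was not tested.

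Interferon genes formed a further group. Of 34 measured genes of the type I interferon response, 13 passed as higher (38.2%, beside 4.65% of all genes) and 0 as lower. The median log2 ratio was 0.51. Ifi47, a GTPase that interferons induce, had 170 UMIs in 95 ND cells and 297 in 131 HFD cells (0.71, 0.43 to 0.99), and Ifi27l2a had 32 in 26 cells and 91 in 45 cells (1.41, 0.82 to 2.04). The classical antiviral genes were rare. Isg15, a ubiquitin-like modifier, had 7 UMIs in 7 cells and 28 in 14 cells, 10 of them in 1 cell (1.91, 0.68 to 3.34). Ifit1, which binds viral RNA, had 1 UMI and 25 UMIs in 8 cells (4.55, 1.94 to 9.91).

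The promoters of Isg15 and Ifit1 are shown because they carry the interferon-stimulated response element, searched as GAAA, any 2 bases and GAAA on both strands, and marked in capitals. They span chr4:156200819-156200968 on the minus strand and chr19:34640739-34640888 on the plus strand of GRCm38.p6, from RefSeq, ending 1 base before the start site.
Isg15: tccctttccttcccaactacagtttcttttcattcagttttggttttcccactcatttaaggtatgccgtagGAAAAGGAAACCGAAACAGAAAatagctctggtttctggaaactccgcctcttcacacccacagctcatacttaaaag
Ifit1: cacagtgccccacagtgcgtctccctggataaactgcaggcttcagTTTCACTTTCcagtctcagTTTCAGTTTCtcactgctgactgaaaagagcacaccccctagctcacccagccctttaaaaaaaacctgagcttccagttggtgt
Isg15 holds 3 overlapping matches, and Ifit1 holds 2 on the opposite strand. The motif occurred in 21 of 42 promoters of the list (34 of 44 genes matched) and in 3.44% of all promoters. It also occurred in 4 of 18 promoters of the cytotoxic list.

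The interferon genes were spread over many cells. Their sum ran from 0 to 160 UMIs per 10000 in ND cells, with a median of 26.7, and from 7.45 to 259 in HFD cells, with a median of 36.1. Cells with and without Ccl5 both leaned up, with list medians of 0.54 and 0.27 on the log2 scale. In the medians per cell the sum went from 26.9 to 41.1 UMIs per 10000 with Ccl5 and from 26.5 to 32.5 without. Among 29 genes of the interferon gamma response and class I presentation, 5 passed as higher (17.2%, beside 4.65% of all genes). The list median was 0.32. The GTPases Igtp (31 and 68 UMIs, 1.04), Irgm2 (21 and 48, 1.10) and Gbp9 (19 and 42, 1.05) were among the 5. The others were the factor Irf8 (90 and 157, 0.71) and the chemokine Cxcl10. Cxcl10 had 0 UMIs in the ND cells and 20 in 3 HFD cells, at least 6.24-fold higher when 0 is set at the floor of 3 UMIs.

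Among genes with at least 100 UMIs, the 2 largest ratios belonged to inducible heat shock genes. Hspa1a had 3 UMIs, all in 1 ND cell, and 123 UMIs in 35 HFD cells (log2 ratio 5.26, 3.68 to 7.56). Hspa1b had 32 UMIs in 17 ND cells and 208 in 59 HFD cells (2.61, 2.06 to 3.19). Both encode the stress-induced HSP70, and their sequences are so alike that the split of molecules between them is uncertain. Their promoters are shown for this likeness and for the heat shock element, searched as GAANNTTC and marked in capitals, at chr17:34972157-34972306 and chr17:34959239-34959388 on the minus strand of GRCm38.p6, from RefSeq.
Hspa1a: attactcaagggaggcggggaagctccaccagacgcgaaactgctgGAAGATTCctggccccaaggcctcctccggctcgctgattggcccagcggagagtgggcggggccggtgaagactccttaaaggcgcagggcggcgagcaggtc
Hspa1b: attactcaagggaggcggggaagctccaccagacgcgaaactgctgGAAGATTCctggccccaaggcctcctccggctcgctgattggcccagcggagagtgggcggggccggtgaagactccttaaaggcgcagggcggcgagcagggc
The 2 promoters differed at 4 of 300 bases, 1 of them in the stretch printed. The element occurred in 11 of 22 promoters of the heat shock list (16 of 19 genes matched) and in 7.86% of all promoters.

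Besides these, Dnajb1 and Ahsa1 were the only heat shock genes to pass. Of 17 measured, 4 passed as higher (23.5%, beside 4.65% of all genes) and none as lower. All 17 had a ratio above 0, and the median log2 ratio was 0.41. Dnajb1, a partner of HSP70, had 52 and 108 UMIs (0.96), and Ahsa1, a partner of HSP90, had 13 and 30 (1.11). The abundant Hspa8 and Hsp90aa1 stood at 815 and 1037 CPM (0.35) and at 576 and 739 CPM (0.36). Hspa1b was found with Ccl5 in 4.35% of ND and 30.6% of HFD cells and without it in 12.0% and 28.3%, so it did not keep to either set. Cirbp, the cold-inducible RNA-binding protein, was lower, with 78 UMIs in 61 cells and 42 in 36 cells (-0.99, -1.56 to -0.43). It was the 1 gene to pass among 7 clock and cold-inducible genes, whose median was -0.09.

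Immediate early genes were mixed, with 11.5% higher and 7.69% lower, beside 4.65% and 2.59% of all genes. Of 26, Jun (151 and 303 UMIs, log2 ratio 0.91), Egr1 (49 and 90, 0.78) and Dusp5 (25 and 57, 1.09) passed as higher, and Egr3 (58 and 20, -1.63) and Myc (64 and 44, -0.64) as lower. Of the 58 ND UMIs of Egr3, 29 lay in 1 cell. Fos stood at 144 and 113 CPM (-0.35, -0.74 to 0.04). Of 12 glucocorticoid response genes 0 passed in either direction, and Fkbp5 stood at 37.5 and 38.4 CPM (0.03).

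Some lipid genes passed. Of 26 genes of fatty acid oxidation and lipid handling, 4 passed as higher (15.4%) and 1 as lower (3.85%). Of all genes 4.65% passed as higher and 2.59% as lower. The list's median log2 ratio was 0.22, or 0.06 without the cells at 1% or more of other-lineage UMIs. Cpt1a, which brings fatty acids into mitochondria, had 68 UMIs in 45 ND cells and 122 in 72 HFD cells (0.75, 0.31 to 1.20), and Acot7, a thioesterase, had 24 and 66 (1.36, 0.67 to 2.10). Acsl5 (40 and 65 UMIs, 0.61) and Etfb (10 and 24, 1.17) also passed, and Acaa1a, a peroxisomal thiolase, was lower (33 and 16, -1.14). Of 24 genes of cholesterol and fatty acid synthesis 0 passed in either direction, with a median of -0.09.

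Dividing cells were few. Of 24 genes of G2 and M phase 0 passed, with a median log2 ratio of -0.10, and Ung alone of 22 S phase genes did (13 and 28 UMIs, 1.01). Mki67 of the G2 and M list was found in 8.5% of ND and 16.2% of HFD cells (ratio 1.91, 1.03 to 3.67). At 1000 UMIs it was found in 4% and 8.12% (2.03, 0.82 to 5.48). A mere 8 ND cells (4%, 1.74 to 7.73%) and 13 HFD cells (6.60%, 3.56 to 11.02%) had 10 or more UMIs of the G2 and M list, and they held 91.4% and 90.4% of its UMIs. Their median depths were 14764.5 and 14160 UMIs, against 3321.5 and 3304.5 in the other CD8 T cells. Whether some of them were mixed with dividing cells of other lineages was not tested. Within the Ccl5 split the list's median was -0.81 with Ccl5, where 12 of 23 genes passed as lower, and 1.15 without it, where 12 of 18 passed as higher. Those values rest on 5 and 9 cells with 10 or more of these UMIs among cells with Ccl5 and on 3 and 4 among those without.

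**Figure D4:**
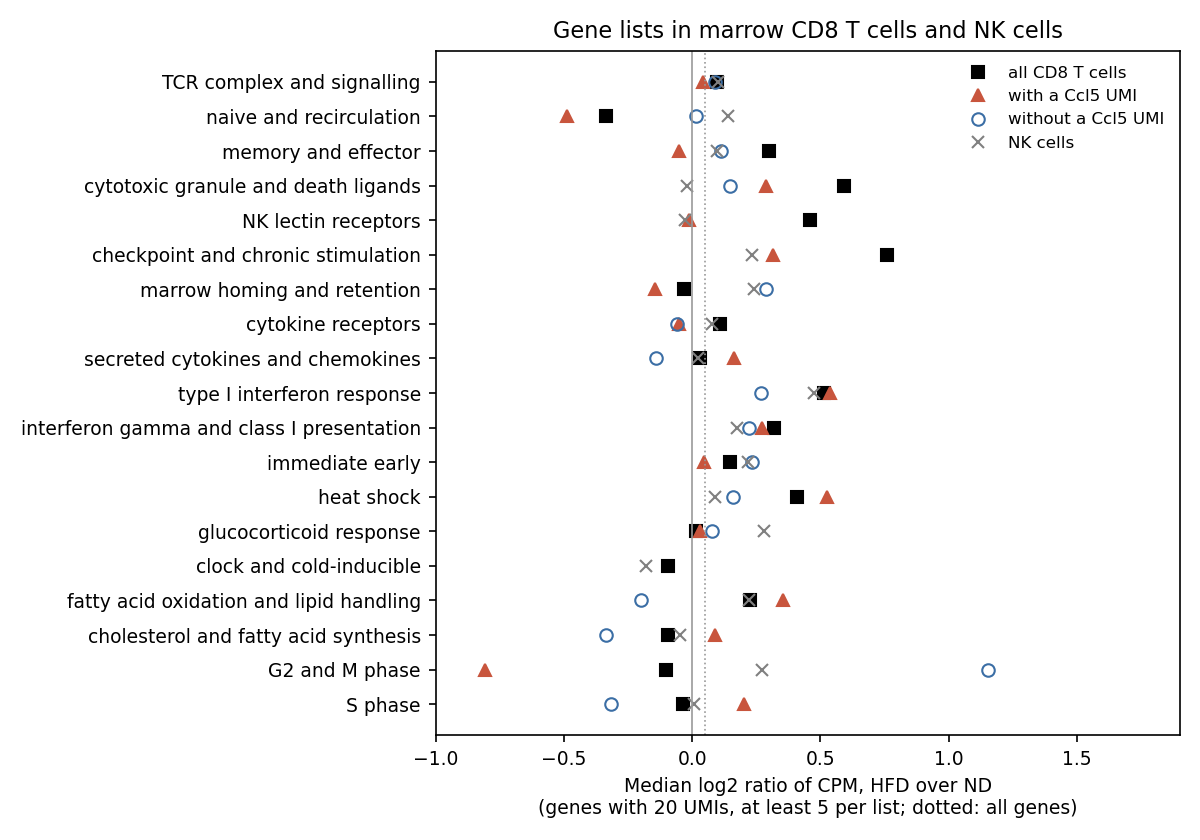
Median log2 ratio of CPM, HFD over ND (x axis), for each of 19 gene lists (rows) in all marrow CD8 T cells (black squares), in those with a Ccl5 UMI (red triangles) and without one (blue circles), and in NK cells (grey crosses). The cytotoxic list lies at 0.59 over all CD8 T cells, and the naive list lies at -0.34 over all of them and at 0.02 without Ccl5.

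By the ranking of 2788 genes with at least 100 UMIs in these cells, the 10 highest included Hspa1a, Hspa1b, Rgs1, Ifi27l2a, Ccl4, Adam19, Peak1, Dot1l and Gimap7. Gimap7 had 110 UMIs in 69 ND cells and 232 in 112 HFD cells (log2 ratio 0.98), and Adam19, a membrane protease, had 34 in 27 cells and 83 in 55 cells (1.19). Dot1l, a histone H3 methyltransferase, had 34 and 72 UMIs (0.99), and the kinase-like Peak1 had 32 and 73 (1.10). No cell of either library held more than 9 UMIs of any of these 4.

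The 10 lowest were Ltf, Ly6g, Slc12a7, Il6ra, Cirbp, Mapk14, Ift80, Als2cl, Sertad2 and Cpox. Ltf and Ly6g are neutrophil genes, whose 410 and 91 ND UMIs lay in 12 and 7 cells, and of the 124 ND UMIs of Cpox, a haem enzyme, 70 lay in 1 cell. Without that cell its log2 ratio of -0.82 turned to 0.24. Slc12a7, an ion cotransporter, was lower over many cells, with 77 UMIs in 61 ND cells and 39 in 31 HFD cells (-1.08, -1.67 to -0.50). Als2cl, one of the genes most enriched in these cells, had 111 in 68 cells and 64 in 45 cells (-0.89, -1.36 to -0.43). The stress kinase Mapk14 had 76 and 43 (-0.92).

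Beside NK cells and CD4 cells, the HFD and ND values of the CD8 T cells read as follows, with the difference between cell sets not tested. The NK rule (Ncr1 or Klrb1c, no Cd3 gene) found 435 ND and 233 HFD cells, where 4.31% and 3.2% of 9762 genes passed as higher and lower. There Ccl5 had a log2 ratio of 0.18, Eomes -0.14 and Nkg7 0.02, against 0.85, 0.76 and 0.59 in CD8 T cells. NK cells are known to express these genes without priming, and Ccl5 was found in 86.9% of ND and 80.3% of HFD NK cells. The NK medians of the naive, memory and cytotoxic lists were 0.14, 0.10 and -0.02.

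Some interferon genes and both Hspa1 genes also passed as higher in the HFD library in other cells. In NK cells 13 of 36 type I interferon genes passed as higher, with a median log2 ratio of 0.48, and Isg15 (1.67), Hspa1a (5.51) and Hspa1b (4.17) were among the genes that passed. Of 18 heat shock genes in NK cells only Hspa1a and Hspa1b passed, with a median of 0.09. In B cells (2.86% of 11652 genes higher and 2.33% lower) Isg15 (1.46) and Hspa1b (3.43) passed as higher and Cirbp (-0.61) as lower, as Cirbp did in NK cells (-0.78). There 9 of 43 type I interferon genes passed as higher (median 0.29), and of 19 heat shock genes only Hspa1a and Hspa1b (median 0.15). In CD4 cells 3 of 18 interferon genes (median 0.30) and 5 of 14 heat shock genes (median 0.47) passed as higher.

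The few CD4 cells, with 120973 and 167631 UMIs in all, leaned the way of the CD8 T cells (7.23% of 2779 genes higher and 3.6% lower). Ccl5 had 100 UMIs in 12 of 35 ND cells and 307 in 26 of 54 HFD cells (log2 ratio 1.15), and Nkg7 had 21 and 65 UMIs (1.16). Lef1 had 33 UMIs in 18 cells and 11 in 10 cells (-2.06), and Tcf7 had 78 and 42 (-1.36). The naive list had a median of -0.76, with 7 of 13 genes lower, and the memory list a median of 0.85, with 12 of 23 higher and 2 lower. Eomes (4 and 0 UMIs) was too sparse there to compare.

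**Figure D5:**
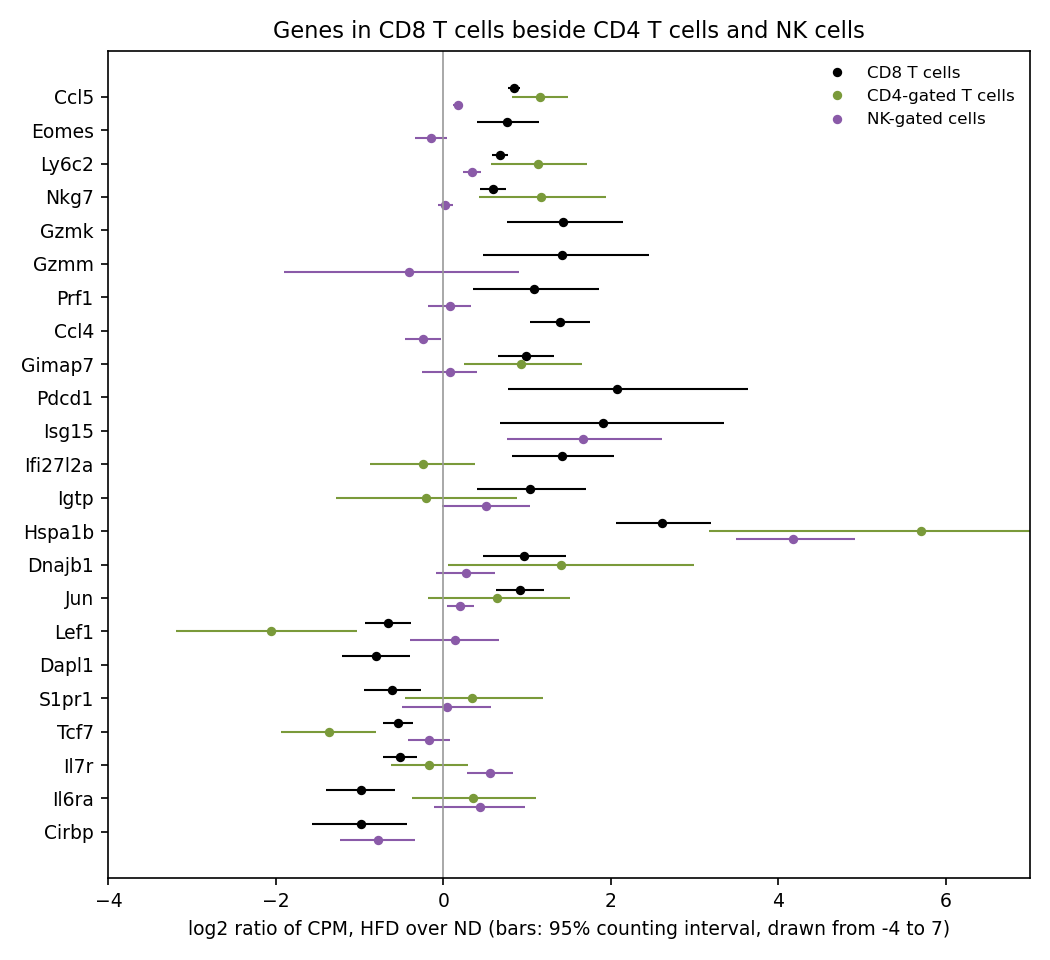
Log2 ratio of CPM, HFD over ND (x axis), of 23 genes (rows) in CD8 T cells (black), CD4 cells (green) and NK cells (purple), with bars for the 95% counting interval and only genes with 20 UMIs in the cell set. Eomes lies at 0.76 in CD8 T cells and at -0.14 in NK cells, and Hspa1b lies above 0 in all 3.

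Receptor genes said little about clones. Beta variable segments were detected in 25 ND cells and 28 HFD cells and alpha segments in 13 and 13, and the beta segment found most, Trbv2, was in 9 and 7 cells. Gamma chain genes were more frequent in the HFD cells: a gamma constant gene was found in 25 of 200 ND cells and 47 of 197 HFD cells, and Trgv2 in 7 and 22. The delta constant gene Trdc was found in 2 and 6 cells. Markers of gamma-delta T cells summed to 114 and 256 CPM. Without the cells that held Trdc or a UMI of Cd79a, the shares with Ccl5 were 45.2% and 73.7%.

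The tables hold 5 antibody tags, and none is named for CD3, CD4 or CD8. On CD8 T cells the median molecules per cell were 0 and 0 for CD105, 0 and 0 for CD117, 1 and 1 for Ly-6A_Ly-6E, 3 and 2 for CD16_CD32, and 3 and 2 for R-Phycoerythrin in the ND and HFD libraries. Ly-6A_Ly-6E (Sca-1), which activated and memory T cells can also carry, reached 10 or more molecules on 8% of ND (4.64 to 12.7%) and 10.2% of HFD CD8 T cells (6.31 to 15.2%). B cells carried medians of 16 and 11 molecules of CD16_CD32. The R-Phycoerythrin tag, which binds a dye on another antibody that the labels do not name, had medians of 16 and 16 on CD4 cells. The stem cell tags CD105 and CD117 were thus at the floor on CD8 T cells.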

How the data were processed

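The deposited tables hold counts, whole-number molecules per gene and cell corrected by RSEC. Per the file headers, the authors ran BD WTA Rhapsody Analysis Pipeline 1.9.1 with a custom reference, whose genome build and annotation the sources used here do not name. The 5 antibody tags in the same tables were left out of gene totals and library depth.

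Genes were matched by symbol (20478 of 24014 shared), and a symbol in 1 table only was taken as 0 in the other. Cells were filtered and chosen as the report states. The members, gene lists and markers were chosen with earlier results of these data known. Doublets were kept, and Scrublet calls (2.84% of ND and 2.76% of HFD cells, 6 and 8 of them CD8 T cells) were removed in an alternative. UMIs were summed over the cells of a set and scaled to its total (CPM). The log2 ratio of HFD over ND took an exact conditional binomial 95% interval, shares took Clopper-Pearson intervals, and 0 UMIs were set to a floor of 3. PCR copies were collapsed by UMI, and the intervals cover counting error only, leaving out mice, preparations and the clumping of UMIs in cells. The ratios were tested on simulated data. With 1 library per diet no p-value was computed.

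Genes named were the 10 highest and 10 lowest ratios among genes with at least 100 UMIs and at least 0.25 of the level of all other cells, up to 4 members of each of 19 lists with the largest ratios, the 10 most enriched genes, the rule's genes and a fixed set of T cell genes. Mitochondrial, ribosomal, haemoglobin, immunoglobulin and receptor genes and numbered gene models were left out of the rankings. Other genes were named after their values were seen, as were those within the Ccl5 split. Some genes that met these rules are counted but their results are not reported here. Analyses used Python 3.11.15, numpy 2.4.6, scipy 1.17.1, pandas 2.3.3, scanpy 1.11.5 and matplotlib 3.10.9. Promoter sequences came from RefSeq, GRCm38.p6.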

Additional observations from a re-analysis of the deposited data

How the results depend on the processing

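No paired analysis was possible because each diet had 1 library and the labels give no replicate numbers. For the shares, the counts of genes and the naive, memory, cytotoxic and interferon lists, 116 recomputed values stayed close to those reported, 8 moved and 2 changed sign. For single genes and other lists the numbers were 1544, 135 and 16. The cause was not tested where none is named.

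Thinning each cell to 1000 UMIs before choosing cells left 65 ND and 82 HFD CD8 T cells, with a ratio of shares of 1.14 (0.82 to 1.61) against 0.90. CD8 T cells were then 80.2% of CD8 and CD4 cells together in the ND library and 90.1% in the HFD library. That order is opposite to the 85.1% and 78.5% reported. Thinning the chosen cells gave 155 genes higher and 66 lower, and a minimum of 100 UMIs gave 115 and 51, each from fewer genes tested. A minimum of 1 UMI gave 456 and 271. Of the type I interferon genes 3 passed after thinning, 8 with at least 2 Cd8 UMIs and 9 with the totals that left out mitochondrial, ribosomal, haemoglobin, S100a8 and S100a9 UMIs. Of the cytotoxic genes 3 and 5 passed after thinning and with those totals, and of the memory genes 4 passed without the condition on Ncr1 and Klrb1c. Thinning moved Eomes from 0.76 to 0.29 and Isg15 from 1.91 to 1.02 (log2 ratios).

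The alternatives by Ccl5 and by other-lineage UMIs were chosen after seeing the data. With cells with and without Ccl5 weighted alike, the naive median was -0.10 and the memory median 0.066. The memory median was -0.050 in cells with Ccl5, and the naive and cytotoxic medians were 0.016 and 0.15 in cells without it. Lef1 was at 0.038 with Ccl5. Without Ccl5 these turned sign, mostly on few UMIs: Ccl4 -0.89, Cx3cr1 -0.64, Egr3 3.30, Eomes -0.88, Gimap7 -0.87, Il10ra -1.16, Ltf 0.25, Rgs1 -1.48 and Ung -0.0038. Ung was at -2.30 after thinning. Cpox was at 0.27 as a mean over cells, 0.38 after thinning, 0.24 without its top cell, 0.30 without cells at 1% or more of other-lineage UMIs and 0.28 in cells with Ccl5.

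Genes under 20 UMIs in these 397 cells could not be compared at this depth.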
